A study of Rattus norvegicus with 23 samples.

Results

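The liver sinusoidal endothelial cell (LSEC) fraction of a rat organotypic liver model was compared between cultures with and without added Kupffer cells (KCs), the resident macrophages of the liver. The comparison rested on 6 of the 23 arrays of the series, which fall into 8 groups, and was chosen by the labels alone: 3 arrays of the 3DHLK LSEC fraction (model of hepatocytes, LSECs and KCs) against 3 arrays of the 3DHL LSEC fraction (model of hepatocytes and LSECs), all at day 12 of culture. Every one of the 14217 genes that the array names was tested. Both models held hepatocytes of female Lewis rats under a detachable polyelectrolyte multilayer that takes the place of the Space of Disse, with LSECs of the same kind of isolation on top. The 3DHLK model received cryopreserved rat KCs, bought in, on the same membrane, and all cocultures were kept in hepatocyte medium. LSECs were taken out with beads carrying the SE-1 antibody and KCs with beads carrying a CD163 antibody, so each LSEC array is RNA of a bead fraction and not of single cells. Hepatocyte arrays of the 3DHLK and 3DHL models, of collagen sandwiches (CS) and of hepatocyte monolayers (HM), 3 each, and KC arrays (2 from 3DHLK, 3 from KC monolayers) served for comparison. Whether replicates are separate animals or cultures is not in the labels. The p-values cover only the spread of arrays within groups, possibly a technical one, estimated over all 23 arrays and not the 6 alone.

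LSECs line the sinusoids, form a fenestrated barrier between blood and hepatocytes, clear waste through scavenger and Fc receptors, and keep stellate cells quiet. KCs sit in the same sinusoids, take up particles, and answer microbial products with cytokines. The question put to the data was how the RNA of the LSEC fraction differed once KCs had been cultured beside it.

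The label was first set against marker genes, as log2 expression values per gene. The mean of 26 hepatocyte markers ranged over 12.83 to 12.90 on the 3DHLK LSEC arrays and over 12.51 to 12.56 on the 3DHL LSEC arrays, and averaged 12.35 in 3DHLK hepatocytes, 12.16 in 3DHL hepatocytes, 12.98 in CS and 12.45 in HM. Alb, serum albumin, read 14.54, 14.52 and 14.52 in the 3DHLK LSEC fraction and 14.51, 14.56 and 14.45 in the 3DHL LSEC fraction, at the top of the scale. The hepatocyte list therefore stood at least as high in the LSEC fraction as in the hepatocyte arrays of the same models. The 30 endothelial and LSEC markers had array means of 6.64 to 6.75 in the 3DHLK LSEC fraction and 6.60 to 6.65 in the 3DHL LSEC fraction. They averaged 6.84 in 3DHLK hepatocytes, 6.55 in 3DHL hepatocytes, 6.61 in CS and 6.49 in HM, and 7.04 in 3DHLK KCs and 7.255 in KC monolayers. HM was cultured as hepatocytes alone, and its freedom from endothelium was not tested. Stab2, the hyaluronan scavenger receptor of LSECs, read 5.94, 5.96 and 6.04 in the 3DHLK LSEC fraction and 5.81, 5.88 and 5.86 in the 3DHL LSEC fraction, against a mean of 5.78 in HM. Lyve1, a second sinusoidal hyaluronan receptor, averaged 5.88 in the 3DHLK LSEC fraction and 5.72 in the 3DHL LSEC fraction, against 5.88 in HM. The mean of the endothelial list, Stab2 and Lyve1 thus read close to hepatocyte monolayers, while hepatocyte genes were as high as in hepatocytes of the same models. Not every endothelial marker did so, and Fcgr2b, given below, read above HM in both groups. The samples are therefore called the LSEC fraction, after their label, and not LSECs. In such bulk samples, fewer cells of a type and less RNA per cell cannot be told apart.

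**Figure D1:**
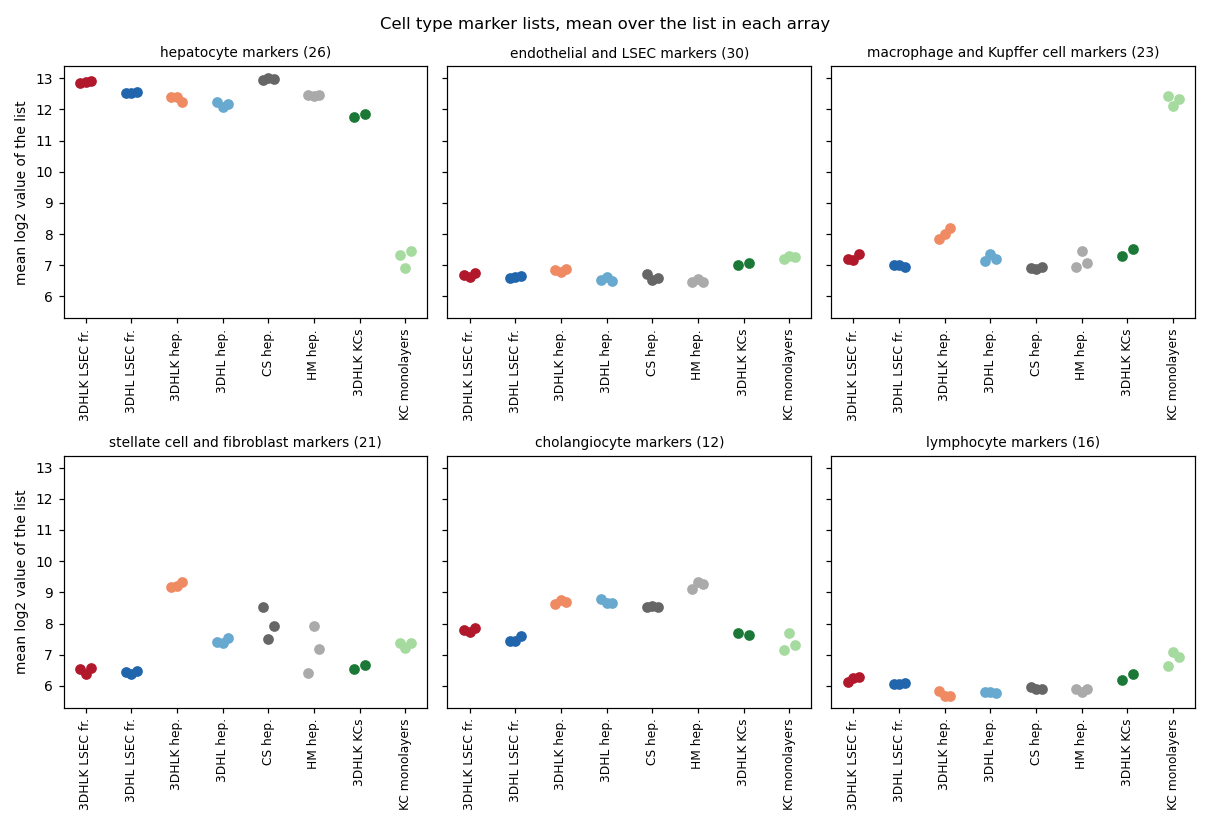
Mean log2 expression value of 6 cell type marker lists (number of genes measured in parentheses) on each of the 23 arrays, 1 point per array, by group. Hepatocyte markers are high in both LSEC groups (12.83 to 12.90 in the 3DHLK LSEC fraction, 12.51 to 12.56 in the 3DHL LSEC fraction), macrophage markers are high only in KC monolayers (mean 12.29), and stellate cell markers are highest in 3DHLK hepatocytes (mean 9.23).

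Fcgr2b, the Fc receptor that the SE-1 antibody is known to bind, was the endothelial marker that rose. It read 7.35, 7.38 and 7.36 in the 3DHLK LSEC fraction and 6.46, 6.42 and 6.33 in the 3DHL LSEC fraction, a 1.95-fold difference (limma, log2 change 0.96, SE 0.15, adjusted p = 0.000301), against a mean of 4.80 in HM. The 2 other endothelial markers that passed the test fell: Esam, an adhesion molecule of endothelial junctions (log2 change −1.11), and Cd36, a fatty acid and lipoprotein scavenger receptor (−0.67). The other 27 measured members did not pass. Cd36 lost its call in 2 of the 6 fits that each left out 1 LSEC array (changes of −0.72 to −0.58).

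The macrophage markers were measured to see whether KC genes moved in the LSEC fraction. The 23 of them averaged 7.17 to 7.35 on the 3DHLK LSEC arrays and 6.94 to 7.01 on the 3DHL LSEC arrays, against 12.29 in KC monolayers. They averaged only 7.41 in the 3DHLK KC fraction itself, beside 8.02 in 3DHLK hepatocytes, 7.24 in 3DHL hepatocytes and 7.15 in HM. A level far below KC monolayers, which are of day 3, therefore does not set the LSEC fraction apart from the KC fraction. The array means of both LSEC groups did not overlap, 19 of 23 members had a change above 0, and the median change was 0.17. Of the 23, 3 (13%, against 3.58% of all genes) were higher and none lower: Cd14, the lipopolysaccharide co-receptor that hepatocytes also make, by 0.90 (11.23, 11.12 and 11.29 in the 3DHLK LSEC fraction, and 10.36, 10.35 and 10.23 in the 3DHL LSEC fraction), Hmox1, heme oxygenase, by 0.70, and Cd68, a lysosomal glycoprotein of macrophages, by 0.69. Adgre1, which encodes the macrophage protein F4/80, averaged 4.61 in the 3DHLK LSEC fraction and 4.53 in the 3DHL LSEC fraction, against 12.91 in KC monolayers. Cd163, the gene of the antigen used to remove KCs, averaged 6.86 in the 3DHLK LSEC fraction and 6.69 in the 3DHL LSEC fraction, against 10.63 in KC monolayers. None of the 16 lymphocyte, 12 neutrophil and mast cell and 9 erythroid markers passed the test, and 1 of 12 cholangiocyte markers did (Cldn4, a tight junction protein, higher by 0.84). Array means did not overlap for lymphocyte (6.125 to 6.269 in the 3DHLK LSEC fraction, 6.061 to 6.085 in 3DHL), neutrophil and mast cell (5.95 to 6.034, 5.879 to 5.903) or erythroid markers (6.865 to 6.901, 6.722 to 6.767) either. Their medians were 0.13, 0.132 and 0.152, so a small rise without overlap was not particular to the macrophage list. With 1 LSEC array left out, Cldn4 lost its call in 4 of 6 fits (0.67 to 1.0) and Cd68 in 1 (0.56 to 0.80).

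With limma's moderated test and a Benjamini-Hochberg adjusted p under 0.05 over all genes, 509 genes were higher in the 3DHLK LSEC fraction than in the 3DHL LSEC fraction (3.58% of those tested) and 553 were lower (3.89%), out of 2757 genes with an unadjusted p under 0.05. The higher genes made up 47.9% of the calls. With the arrays centred on housekeeping genes instead, 469 genes were higher and 840 lower, so that 35.8% of the calls were higher. The median log2 change over all genes was 0.04, with 90% of genes between −0.47 and 0.45. Called genes changed by at least 0.28 on the log2 scale, 92 rose and 123 fell by more than 1 unit, and 6 rose and 16 fell by more than 2 units. The arrays of both groups did not overlap in 37.3% of all genes, and 3 of the 1062 called genes had arrays that overlapped. The share of calls differed with the level of a gene. Among the fifth of genes with the lowest mean in the LSEC arrays (up to 6.44), 1.05% were called higher and 0.95% lower, and among the fifth with the highest mean (from 10.03) these shares were 7.10% and 4.96%.

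Of 50 gene lists, the urea cycle and amino acid catabolism held the largest number of rises (30) and contractile and actin-binding proteins the largest number of falls (14). Lists are described by counts and medians, to be read against 3.58% and 3.89% of all genes and a median of 0.04. The hepatocyte marker list itself moved in the same direction as the metabolic lists (median 0.27, 5 of 26 higher and 1 lower, with no overlap of the array means given above), and its part in those results was not tested. The counts move with the arrays fitted, and the settings that moved a count by over 1.5 times are given beside it, or its range over all alternatives. Hepatocyte markers higher ranged over 5 to 13.

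**Figure D2:**
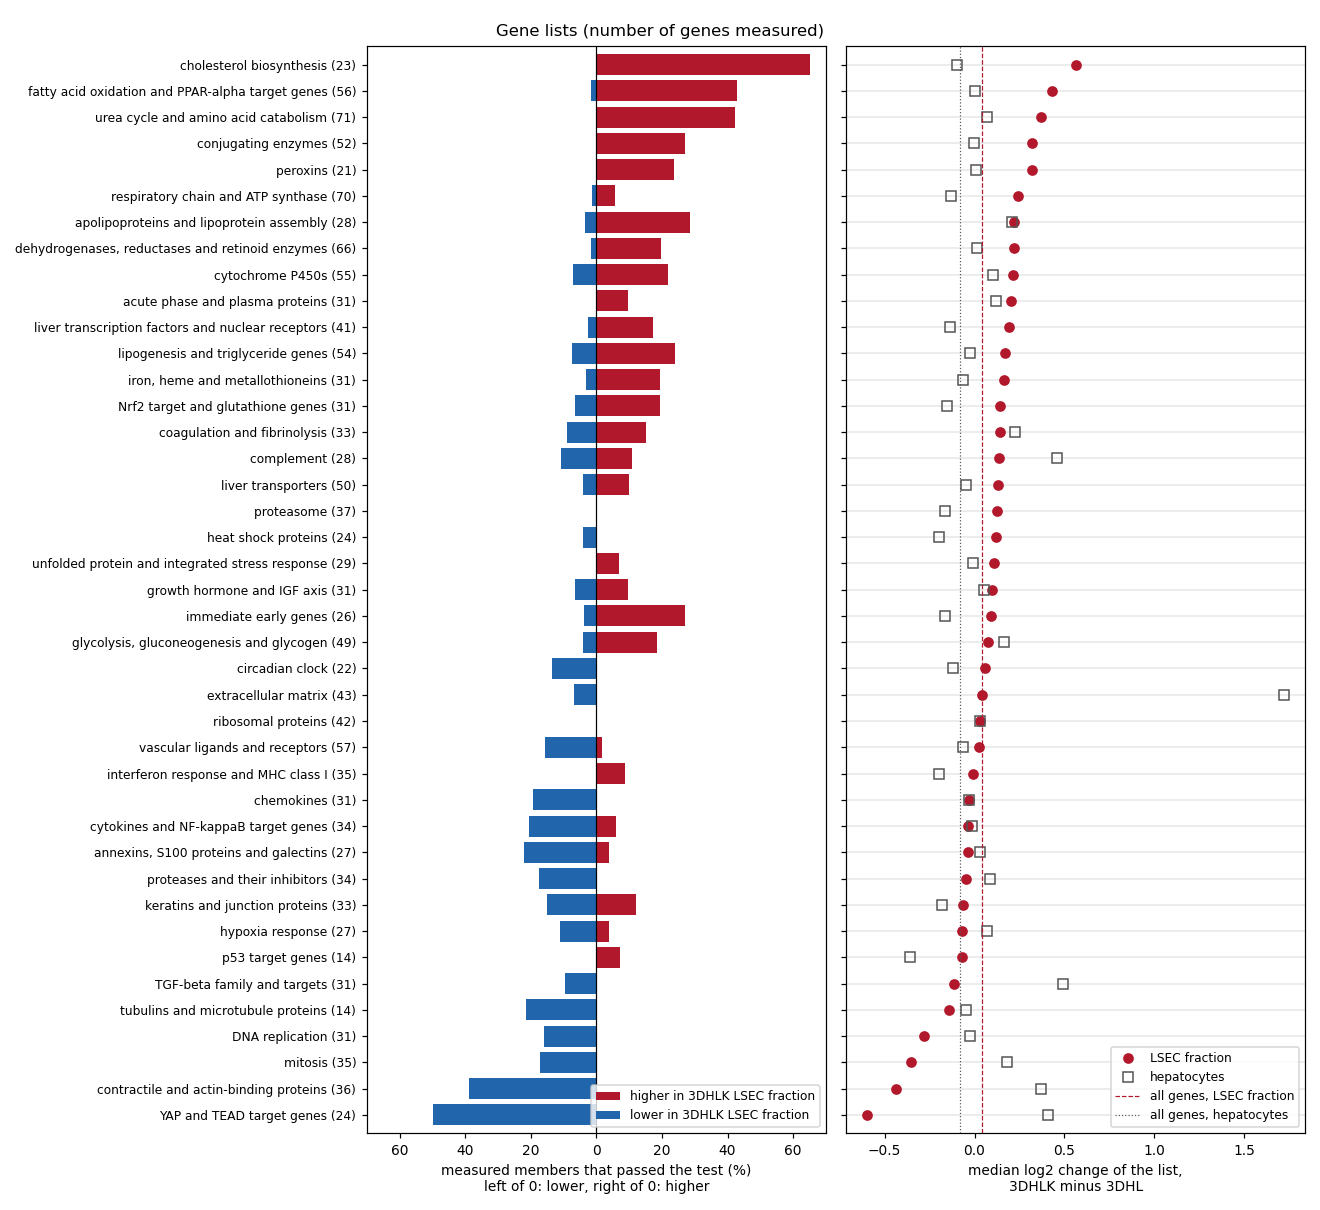
Left, the percentage of measured members of 41 gene lists that passed the test in the LSEC fraction, with those higher in the 3DHLK LSEC fraction to the right of 0 and those lower to the left. Right, the median log2 change (3DHLK minus 3DHL) of each list in the LSEC fraction (filled circles) and hepatocytes (open squares), with dashed and dotted lines at the medians of all genes. Cholesterol biosynthesis (15 of 23 higher) lies at the top and the target genes of YAP and TEAD (12 of 24 lower) at the bottom.

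Cholesterol biosynthesis had the largest share of rises. Of 23 measured genes 15 were higher and none was lower, with a median log2 change of 0.56. The largest rise was that of Idi1, the isomerase that makes dimethylallyl diphosphate: it read 10.10, 10.12 and 10.27 in the 3DHLK LSEC fraction and 8.96, 8.95 and 9.23 in the 3DHL LSEC fraction, 2.17-fold higher (log2 change 1.12, SE 0.22, adjusted p = 0.00205). Hsd17b7, a reductase of sterol intermediates, rose by 1.05 on the same scale. The rises ran along the pathway, from Pmvk (0.75), Fdps (0.51) and the squalene synthase Fdft1 (0.67) to Sqle (0.54), Lss (0.66), Cyp51 (0.66), Ebp (0.56) and Tm7sf2 (0.70), and took in Insig1 (0.63) and Insig2 (0.73), which hold the sterol sensor in the endoplasmic reticulum. Srebf2, the transcription factor that governs the pathway, had a change of −0.09 (adjusted p = 0.88), and Dhcr7, a late reductase of the pathway, did not pass either (adjusted p = 0.788). In hepatocytes of the same models none of the 23 genes passed the test, and the median was −0.10. The count of 15 was 8 without 3DHL replicate 1, 9 without 3DHLK replicate 2 and 8 without 3DHLK replicate 3, and lay between 8 and 16 over all alternatives. Lss (0.62 to 0.73) and Ebp (0.51 to 0.59) lost their calls in all 6 fits without 1 LSEC array, Fdft1 (0.63 to 0.73) and Sqle (0.46 to 0.61) in 5, Insig1 (0.57 to 0.71) in 3 and Fdps (0.48 to 0.54) in 1.

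The 15 of 19 cholesterol genes with a RefSeq promoter (78.9%) that held the box CCAAT, bound by NF-Y, within 250 bases before the start compare with 36.4% of the 11733 tested genes that have such a promoter. Among all genes higher in the 3DHLK LSEC fraction the share was 44.4%, and among those lower 35.3%. The letters were searched on both strands, and a match is a description of the sequence only.

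Fatty acid oxidation followed. Of 56 genes of the pathway and of PPAR-alpha targets, 24 were higher and 1 lower, with a median of 0.43. Fabp1, the liver fatty acid binding protein, read 10.12, 10.33 and 10.55 in the 3DHLK LSEC fraction and 8.25, 8.53 and 8.70 in the 3DHL LSEC fraction, 3.58-fold higher (log2 change 1.84, SE 0.23, adjusted p = 1.71e-05). Hacl1, a lyase of peroxisomal alpha-oxidation, rose by 1.16. Carnitine transfer into mitochondria was represented by Cpt1a (0.91), its inner membrane partner Cpt2 (0.97) and the translocase Slc25a20 (0.65), and the chain-shortening enzymes by Acadm (0.53), Acadvl (0.65), Hadha (0.45) and Acaa2 (1.0). Ppara itself rose by 0.71 (8.90, 8.91 and 8.74 in the 3DHLK LSEC fraction, against 8.36, 8.10 and 7.95 in the 3DHL LSEC fraction), and its partner receptor Rxra by 0.80. Cd36 was the member that fell. Among 21 peroxins, which build peroxisomes, 5 were higher and none lower (median 0.32), led by Pex11a, a factor of peroxisome division, at 1.16 and Pex16 at 0.62. A second probe set of Pex16 did not pass (0.17). The 24 rises of the oxidation list were 13 without 3DHL replicate 1, 15 without 3DHL replicate 2, 13 without 3DHLK replicate 2 and 14 without 3DHLK replicate 3, and the 5 peroxins ranged over 3 to 9. Hadha (0.40 to 0.49) lost its call in all 6 such fits, Slc25a20 (0.60 to 0.72) and Acadvl (0.55 to 0.75) in 5, Acadm (0.48 to 0.62) in 4, Cd36 (−0.72 to −0.58) in 2 and Ppara (0.62 to 0.83) in 1.

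Lipid synthesis was split. Of 54 genes of lipogenesis and triglyceride metabolism, 13 rose and 4 fell (median 0.17). Pemt, which methylates phosphatidylethanolamine to phosphatidylcholine, was 3.88-fold higher, and Lpin1, a phosphatidate phosphatase, read 11.20, 11.32 and 11.40 in the 3DHLK LSEC fraction and 9.73, 9.73 and 9.84 in the 3DHL LSEC fraction (log2 change 1.54, SE 0.13, adjusted p = 1.3e-07). Fatty acid synthase, Fasn, rose by 0.88 and the elongases Elovl6 and Elovl2 by 1.12 and 1.18. Scd2, a desaturase, went the other way, with 8.89, 8.75 and 8.08 in the 3DHLK LSEC fraction and 10.08, 10.11 and 9.96 in the 3DHL LSEC fraction (log2 change −1.48), and Fads3 fell by 0.76. Of 28 apolipoprotein and lipoprotein assembly genes 8 were higher and 1 lower (median 0.22): Apon was 2.27-fold and Apoc2, the cofactor of lipoprotein lipase, 2.13-fold higher, Mttp, which loads lipid onto apolipoprotein B, rose by 0.70, and Lipc, hepatic lipase, fell by 0.72. Without 3DHL replicate 1, 8 lipogenesis genes rose and 2 fell, and over all alternatives 8 to 18 rose and 1 to 5 fell. Apolipoprotein genes higher ranged over 5 to 12. Mttp (0.65 to 0.77) lost its call in 5 of 6 fits without 1 LSEC array, and Fads3 (−0.86 to −0.63) in 1.

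Nitrogen metabolism held the largest number of rises. Of 71 genes of the urea cycle and amino acid catabolism, 30 were higher and none lower, with a median of 0.37 and 65 members above 0. Csad and Cdo1, successive enzymes on the route from cysteine to taurine, rose together. Csad read 10.67, 10.31 and 10.83 in the 3DHLK LSEC fraction and 8.89, 8.94 and 8.87 in the 3DHL LSEC fraction (log2 change 1.71, SE 0.15, adjusted p = 3.07e-07). Cdo1 read 12.92, 13.01 and 13.08 in the 3DHLK LSEC fraction and 11.34, 11.46 and 11.61 in the 3DHL LSEC fraction (log2 change 1.53, SE 0.13, adjusted p = 1.3e-07). Both sets of arrays were far apart relative to their spread. Methionine and one-carbon enzymes were also higher: Gnmt, which uses S-adenosylmethionine to methylate glycine, by 1.65 (9.34, 9.72 and 9.57 in the 3DHLK LSEC fraction, against 7.78, 7.86 and 8.04 in the 3DHL LSEC fraction), Bhmt by 0.92, Mat1a by 0.70 and Cbs by 0.52. In the urea cycle, Otc was 2.72-fold higher, and Arg1 rose by 1.0 and Asl by 0.56. Histidine, tryptophan and tyrosine breakdown were represented by Uroc1 (1.35), Ftcd (1.06), Tdo2 (1.24), Kmo (0.87), Hgd (0.67) and Fah (0.59). The count of 30 was 19 without 3DHL replicate 1. Cbs (0.46 to 0.60) lost its call in 5 of 6 fits without 1 LSEC array, Mat1a (0.66 to 0.77) in 4, Fah (0.53 to 0.66) in 2 and Bhmt (0.78 to 1.0) in 1, and Cbs and Mat1a also with both other scalings.

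**Figure D3:**
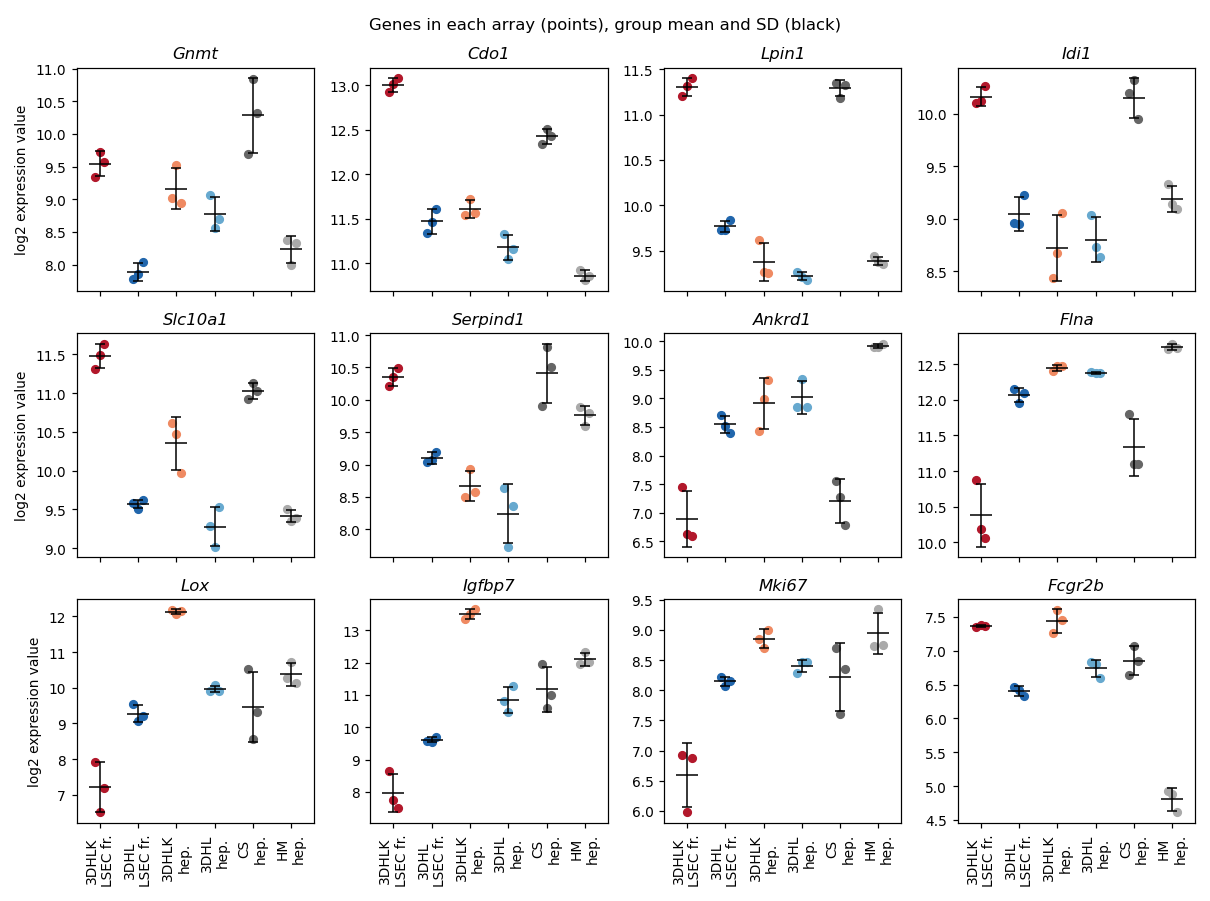
Log2 expression values of 12 genes on each array (points) with the group mean and SD (black), for the LSEC fraction (LSEC fr.) and hepatocytes (hep.) of the 3DHLK and 3DHL models and for CS and HM hepatocytes, 3 arrays each. Each panel has its own scale, which does not start at 0. In all 12 panels the 3 arrays of the 3DHLK LSEC fraction lie apart from the 3 of the 3DHL LSEC fraction, and in each of them the 3DHLK LSEC mean is nearer to CS than to HM. The 12 genes were picked by hand for display and do not stand for all calls. Csad, Lmcd1 and Npy, which went the other way between CS and HM, are not shown.

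Detoxification genes were split into conjugating enzymes, P450s and dehydrogenases. Of 52 conjugating enzymes 14 were higher and none lower (median 0.32). Sult2a2 and Sult2a6, sulfotransferases of bile acids and hydroxysteroids, were 4.55-fold and 2.95-fold higher, Gsta3 rose by 1.20, Ugdh, which makes UDP-glucuronate, by 0.87 and Gstz1 by 0.91. The sulfotransferases are near-identical copies in rats, so their probe sets may share signal. Of 55 cytochrome P450 genes 12 were higher and 4 lower (median 0.22). Cyp3a23-3a1 read 12.10, 12.18 and 12.42 in the 3DHLK LSEC fraction and 10.26, 10.47 and 10.21 in the 3DHL LSEC fraction, 3.79-fold higher, and Cyp1a1, induced through the aryl hydrocarbon receptor, 5.51-fold. Cyp2e1, the ethanol-oxidising P450, was lower, with 9.34, 9.27 and 9.05 in the 3DHLK LSEC fraction and 10.09, 9.84 and 10.05 in the 3DHL LSEC fraction (log2 change −0.77), and Cyp4b1 fell by 0.63. Among 66 dehydrogenases, reductases and retinoid enzymes, 13 rose and 1 fell (Dhrs1, −0.85), with Adh7, a retinol and ethanol dehydrogenase, at 1.12. Over all alternatives 7 to 27 conjugating enzymes, 7 to 19 P450s and 7 to 24 dehydrogenases were higher, and 1 to 5 P450s were lower. The lowest of these counts came without 3DHLK replicate 3 for conjugating enzymes and P450s, and without 3DHL replicate 1 or 3DHLK replicate 2 for dehydrogenases. Cyp2e1 (−0.85 to −0.69) lost its call in 4 of 6 fits without 1 LSEC array and Cyp4b1 (−0.83 to −0.53) in 3.

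Of 41 liver transcription factors and nuclear receptors, 7 were higher: Nr1i2 (0.56) and Nr1i3 (0.67), which sense xenobiotics, Nr0b2 (0.64), Rxra (0.80), Foxa3 (0.69), Cebpa (0.65) and Foxo1 (0.60). The bile acid receptor Nr1h4 had a change of 0.53 and did not pass (adjusted p = 0.215). Onecut1, or HNF6, was the one lower, by 1.07 (9.62, 9.25 and 9.07 in the 3DHLK LSEC fraction, against 10.44, 10.17 and 10.55 in the 3DHL LSEC fraction). Of 50 transporters 5 were higher and 2 lower. Slc10a1, the sinusoidal bile salt uptake carrier, read 11.32, 11.50 and 11.63 in the 3DHLK LSEC fraction and 9.59, 9.51 and 9.62 in the 3DHL LSEC fraction, 3.76-fold higher, and Aqp9, a glycerol and urea channel, rose by 0.90. Slc22a8, an organic anion carrier, was 4.80-fold lower, though a second probe set of it did not pass (−0.16), and Slc10a2, the apical bile acid carrier, was 2.39-fold lower. The 7 higher factors were 2 without 3DHL replicate 1, 4 without 3DHL replicate 2 or 3DHLK replicate 2 and 3 without 3DHLK replicate 3, and 16 without KC monolayers. The 5 higher transporters were 2 without any one of the 3DHL replicates or 3DHLK replicate 3, and 12 with only the arrays compared. Aqp9 (0.80 to 0.98) and Nr1i3 (0.59 to 0.73) lost their calls in all 6 fits without 1 LSEC array, Cebpa (0.50 to 0.79) in 5, Foxa3 (0.59 to 0.77) and Slc10a2 (−1.67 to −0.97) in 4, Nr1i2 (0.48 to 0.63) in 2 and Nr0b2 (0.56 to 0.71) in 1.

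Glycolysis, gluconeogenesis and glycogen genes were split at 9 of 49 higher and 2 lower. Pklr, liver pyruvate kinase, rose by 1.39 and Pdk4, which shuts pyruvate dehydrogenase, by 1.10, as did Fbp1 by 1.02 and Pc by 0.74. The glucose carrier Slc2a1 and Ldhb, a lactate dehydrogenase subunit, fell by 0.79 and 0.72. Of 70 respiratory chain and ATP synthase genes, 69 had a change above 0 (median 0.24), but 4 passed as higher, with Ndufv2 at 0.57 and Ndufa6 at 0.44, and 1 as lower (Cox6a2, a muscle-type cytochrome oxidase subunit, −1.10). None of 42 ribosomal protein genes and 37 proteasome genes passed in either direction, at medians of 0.03 and 0.12. The respiratory count of 4 was 13 with cyclic loess, 7 with housekeeping centring and 24 with only the arrays compared. It was 0 without 3DHL replicate 1 or 3DHLK replicate 2, 1 without 3DHL replicate 2 or 3DHLK replicate 3, and 2 without 3DHL replicate 3 or 3DHLK replicate 1. Ndufa6 (0.38 to 0.50) lost its call in 4 of those 6 fits and Ndufv2 (0.53 to 0.61) in 2. Glycolysis genes higher ranged over 6 to 16.

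Secreted plasma proteins moved in both directions. Among 28 complement genes 3 rose and 3 fell. C4bpb and C4bpa, the chains of the C4b-binding inhibitor, were 4.16-fold and 2.19-fold higher, and C4bpb read 11.32, 11.50 and 11.62 in the 3DHLK LSEC fraction against 9.39, 9.51 and 9.38 in the 3DHL LSEC fraction. Cd55, a membrane inhibitor of complement, fell by 1.03 and C1r, a protease of the first component, by 0.47. In coagulation and fibrinolysis, 5 of 33 were higher and 3 lower. Hrg, histidine-rich glycoprotein, read 11.50, 11.71 and 11.87 in the 3DHLK LSEC fraction and 9.94, 9.80 and 9.96 in the 3DHL LSEC fraction (3.46-fold), Serpind1, heparin cofactor II, was 2.38-fold higher and plasminogen, Plg, rose by 1.17. Among those that fell, Plat, tissue plasminogen activator, was 4.51-fold lower (9.88, 9.09 and 8.68 in the 3DHLK LSEC fraction, against 11.55, 11.45 and 11.18 in the 3DHL LSEC fraction), and F3, tissue factor, 2.10-fold lower. Among 31 acute phase and plasma protein genes 3 rose and none fell, with Serpina4, kallistatin, at 0.79 and Afp, alpha-fetoprotein, at 0.57. Over all alternatives 3 to 8 complement genes rose and 0 to 3 fell, with none lower without 3DHL replicate 1 and 1 without 3DHL replicate 3, 3DHLK replicate 2 or 3DHLK replicate 3. Coagulation genes higher ranged over 4 to 12 and acute phase genes over 2 to 12. Cd55 (−1.19 to −0.93) lost its call in 4 of 6 fits without 1 LSEC array and C1r (−0.54 to −0.38) in 1.

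Contractile and actin-binding genes held the largest number of falls. Of 36 measured 14 were lower and none higher, with a median of −0.44. Tagln, an actin-bundling protein of smooth muscle, read 9.10, 6.78 and 6.90 in the 3DHLK LSEC fraction and 10.90, 10.71 and 10.87 in the 3DHL LSEC fraction (9.40-fold lower, adjusted p = 8.59e-05). Acta1, skeletal alpha-actin, read 8.12, 6.43 and 6.42 in the 3DHLK LSEC fraction and 9.61, 9.21 and 9.56 in the 3DHL LSEC fraction (5.54-fold lower). In both genes replicate 1 of 3DHLK lay between its group and the 3DHL arrays. Flna, filamin A, a cross-linker of actin filaments, read 10.88, 10.19 and 10.07 in the 3DHLK LSEC fraction and 12.15, 11.96 and 12.09 in the 3DHL LSEC fraction (log2 change −1.69), and Filip1l (−2.25), Cnn2 (−1.78), Actn1 (−1.76) and Fhl2 (−1.66) fell as well. Acta2, smooth muscle actin and the mark of activated stellate cells, averaged 7.60 in the 3DHLK LSEC fraction and 7.33 in the 3DHL LSEC fraction and did not pass (adjusted p = 0.877). Without 3DHLK replicate 3 the count of 14 was 9.

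The target genes of YAP and TEAD, which pass on tension in the cytoskeleton to the nucleus, had the largest share of falls: 12 of 24 were lower, none was higher, and the median was −0.60. Ankrd1 read 7.45, 6.63 and 6.59 in the 3DHLK LSEC fraction and 8.71, 8.52 and 8.40 in the 3DHL LSEC fraction (3.14-fold lower, adjusted p = 0.000664). Crim1 fell by 1.10 and Ccn2, connective tissue growth factor, by 1.04 (12.27, 11.36 and 11.66 in the 3DHLK LSEC fraction, against 12.87, 12.69 and 12.87 in the 3DHL LSEC fraction), as did Ajuba (−0.92) and Amotl2 (−0.76). Ccn1, a close relative of Ccn2, had a change of 0.02 (adjusted p = 0.987). The count of 12 was 7 without 3DHLK replicate 2. Amotl2 (−0.87 to −0.66) lost its call in 3 of 6 fits without 1 LSEC array and Crim1 (−1.25 to −1.02) in 2.

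Some promoter stretches are shown, for genes of the immediate early, contractile and YAP and TEAD lists that passed the test. Each holds a motif of serum response factor (SRF) or TEAD. The SRF motif is shown before genes that rose and genes that fell, and the TEAD motif only before genes that fell. They come from RefSeq (build GRCr8), were searched on both strands over 250 bases before the start, and were picked after their values were seen. The first set has in capitals the CArG box of SRF in its strict form, with only A or T between CC and GG. It was found in 1.36% of the 11733 tested genes with a promoter, in 5 of 18 immediate early genes and in 4 of 31 contractile and actin-binding genes. The first 3 genes rose in the 3DHLK LSEC fraction (Egr1 by 0.68, Egr2 by 1.07, Zfp36 by 0.41) and the last 3 fell (Acta1 −2.47, Cnn2 −1.78, Fhl2 −1.66). Egr1 (0.66 to 0.71) and Zfp36 (0.35 to 0.45) lost their calls in all 6 fits without 1 LSEC array, and Egr2 (0.94 to 1.15) in 2.
Egr1, chr18:26736943-26737034, plus strand: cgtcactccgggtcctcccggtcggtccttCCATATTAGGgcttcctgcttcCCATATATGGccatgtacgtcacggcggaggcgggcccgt
Egr2, chr20:21054485-21054554, minus strand: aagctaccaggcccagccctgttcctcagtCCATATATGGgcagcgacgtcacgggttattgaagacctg
Zfp36, chr1:92799109-92799170, minus strand: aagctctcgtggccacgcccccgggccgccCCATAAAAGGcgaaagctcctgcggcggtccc
Acta1, chr19:68784249-68784318, minus strand: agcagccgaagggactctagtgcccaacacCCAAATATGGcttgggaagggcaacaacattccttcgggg
Cnn2, chr7:10370344-10370413, minus strand: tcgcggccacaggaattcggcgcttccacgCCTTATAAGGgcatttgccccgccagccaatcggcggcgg
Fhl2, chr9:52923345-52923414, minus strand: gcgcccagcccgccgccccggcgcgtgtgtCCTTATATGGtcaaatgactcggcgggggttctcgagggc

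The same letters thus stood before genes that rose and before genes that fell. Over all calls, the CArG box was present in 4 of 432 higher genes (0.93%) and in 10 of 451 lower genes (2.22%) with a promoter. The second set has the TEAD motif GGAATG, or CATTCC on the other strand, in capitals. It was found in 11.1% of tested genes, in 7 of 16 target genes of YAP and TEAD, in 11 of 31 contractile genes, and in 12.5% of all genes higher and 12.6% of all genes lower in the 3DHLK LSEC fraction, so that its share among all calls was near that of all genes.
Ccn2, chr1:22624671-22624810, minus strand: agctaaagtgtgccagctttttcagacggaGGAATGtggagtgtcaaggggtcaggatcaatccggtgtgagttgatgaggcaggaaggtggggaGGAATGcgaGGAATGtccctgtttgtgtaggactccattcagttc
Flna, chrX:157182382-157182447, minus strand: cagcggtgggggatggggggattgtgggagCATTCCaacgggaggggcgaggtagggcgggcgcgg
Acta1, chr19:68784226-68784291, minus strand: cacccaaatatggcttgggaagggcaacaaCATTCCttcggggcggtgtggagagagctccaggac

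Immediate early genes are switched on within minutes by serum, stress and cell isolation. Of 26 measured 7 were higher and 1 lower (Fosl1, −0.76), with a median of 0.09. Fos read 10.50, 10.66 and 10.74 in the 3DHLK LSEC fraction and 7.20, 7.53 and 7.29 in the 3DHL LSEC fraction, the largest rise of all (9.82-fold, adjusted p = 1.66e-08), although a second probe set of Fos gave a change of 0.44 that did not pass. Fosb was 5.56-fold higher (7.41, 7.32 and 7.71 in the 3DHLK LSEC fraction, against 4.88, 4.92 and 5.22 in the 3DHL LSEC fraction). Srf itself had a change of −0.41 (adjusted p = 0.154). The count of 7 was 4 without any one of the 3DHL replicates and 3 without 3DHLK replicate 2 or 3, and lay between 3 and 10 over all alternatives. Fosl1 (−0.82 to −0.70) lost its call in 2 of 6 fits without 1 LSEC array.

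Cell cycle genes passed the test as lower where they passed, with no rise among 31 of DNA replication (5 lower, median −0.28) and 35 of mitosis (6 lower, median −0.35, with 32 members below 0). Mki67, the gene of the Ki-67 antigen, read 6.93, 5.98 and 6.87 in the 3DHLK LSEC fraction and 8.22, 8.07 and 8.15 in the 3DHL LSEC fraction (2.94-fold lower, adjusted p = 0.000469). Ube2c, a ubiquitin-conjugating enzyme of mitotic exit, fell by 1.0, and Mcm5 and Mcm6, subunits of the replicative helicase, had changes of −0.85 and −0.83. Ccnd1, cyclin D1, fell by 1.21. An E2F-type site (TTTNGCGC) was present in 8 of 28 replication genes (28.6%) with a promoter, against 1.70% of all, and CCAAT in 23 of 30 mitosis genes (76.7%). Of 14 p53 target genes 1 was higher, Sesn1, a sestrin, by 0.73. Tubulins and microtubule proteins had 3 of 14 lower, with Tubb2b at −0.98 and Stmn1, stathmin, at −0.97. The 5 replication genes were 3 without 3DHL replicate 1, 1 without 3DHL replicate 3, 2 without 3DHLK replicate 2 or 3, and 12 with only the arrays compared. The 6 mitosis genes were 3 without the lowest 30% of genes and 15 with the replicate block. The 3 tubulin genes were 1 without any one of the 3DHL replicates or 3DHLK replicates 1 or 2. Tubb2b (−1.27 to −0.62) lost its call in 5 of 6 fits without 1 LSEC array, Ube2c (−1.18 to −0.87) in 4 and Mcm6 (−0.94 to −0.64) in 2.

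Inflammatory genes were taken by list. Of 31 chemokines 6 were lower and none higher, though the median was −0.03. Ccl2, which draws monocytes, read 8.24, 6.28 and 6.57 in the 3DHLK LSEC fraction and 10.02, 10.21 and 9.996 in the 3DHL LSEC fraction (8.29-fold lower). Cxcl3, a neutrophil chemokine, was 6.01-fold lower, and 2 of its 4 other probe sets passed the same way. Among 34 cytokine and NF-kappaB target genes 7 fell and 2 rose. Csf1, the growth factor on which macrophages depend, read 8.78, 8.35 and 8.52 in the 3DHLK LSEC fraction and 10.27, 9.79 and 10.17 in the 3DHL LSEC fraction (2.88-fold lower, adjusted p = 5.49e-06), and Tnfaip2 fell by 0.98. The 2 that rose were Il1rn and Nfkbiz. Il1rn, the interleukin-1 receptor antagonist, read 10.63, 11.11 and 11.06 in the 3DHLK LSEC fraction and 9.26, 9.37 and 9.59 in the 3DHL LSEC fraction (2.88-fold higher). Nfkbiz, a nuclear protein of the IkappaB family, read 8.61, 9.02 and 8.90 in the 3DHLK LSEC fraction and 7.14, 7.37 and 7.22 in the 3DHL LSEC fraction (3.03-fold higher). A second probe set of Nfkbiz, at 0.19, did not pass. Of 35 interferon response and MHC class I genes 3 were higher, led by Oas1a, an antiviral synthetase, at 0.74 and Irf9 at 0.40, and the median was −0.01. The median of the interferon list changed sign with cyclic loess (0.02). The 7 lower cytokine and NF-kappaB target genes were 4 without 3DHL replicate 1 and 3 without 3DHLK replicate 3. The 3 higher interferon genes were 1 with housekeeping centring and without 3DHL replicate 1, 3DHL replicate 2 or 3DHLK replicate 3. Irf9 (0.31 to 0.48) lost its call in 5 of 6 fits without 1 LSEC array, and also with housekeeping centring and a trended robust variance.

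Matrix and vessel genes changed in a minority. Of 43 extracellular matrix genes 3 were lower and none higher: Lox, which cross-links collagen, read 7.92, 6.51 and 7.19 in the 3DHLK LSEC fraction and 9.54, 9.08 and 9.20 in the 3DHL LSEC fraction (4.18-fold lower), and Hspg2, perlecan, fell by 0.79. Of 31 genes of the TGF-beta family 3 were lower, led by Ltbp1, which anchors latent TGF-beta in the matrix (5.11-fold), and Tgfb3 (2.10-fold). Of 34 proteases and inhibitors 6 were lower, led by Serpinb9, an inhibitor of granzyme B (9.83, 8.39 and 8.56 in the 3DHLK LSEC fraction, against 11.30, 11.26 and 11.34 in the 3DHL LSEC fraction), and Plat. Of 27 annexins, S100 proteins and galectins 6 fell, among them S100a6 (−1.27) and Anxa1 (−1.11), and 1 rose (Lgals9, 0.79). Among 57 vascular ligands and receptors 9 fell, including the Notch ligand Jag1 (−1.20), the guidance factor Sema3c (−1.09) and endothelin, Edn1 (−1.0), and S1pr1, the endothelial sphingosine phosphate receptor, rose by 1.08 (9.10, 9.44 and 9.16 in the 3DHLK LSEC fraction, against 7.95, 8.27 and 8.23 in the 3DHL LSEC fraction), with a second probe set at −0.10. The medians of the matrix list (0.04) and the vascular list (0.03) fell below 0 with housekeeping centring (−0.01 and −0.02). Stellate cell and fibroblast markers had 2 of 21 lower, Lox and Reln (−0.90), and none higher. Over all alternatives 2 to 9 matrix genes, 1 to 9 TGF-beta genes, 3 to 12 proteases and inhibitors and 6 to 14 vascular genes were lower. Without 3DHL replicate 1 or 3DHLK replicate 2, 1 TGF-beta gene and 3 proteases and inhibitors were lower, and without 3DHLK replicate 3 again 3 proteases and inhibitors. Tgfb3 (−1.25 to −0.82) and Reln (−1.17 to −0.65) lost their calls in 5 of 6 fits without 1 LSEC array and Anxa1 (−1.39 to −0.85) in 4.

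Keratins and junction proteins went both ways, with 4 of 33 higher and 5 lower. Vim, vimentin, rose by 1.08 (9.83, 9.38 and 9.64 in the 3DHLK LSEC fraction, against 8.58, 8.46 and 8.55 in the 3DHL LSEC fraction), and Gjb2, a liver connexin, by 0.96. Cdh17, an intestinal and liver cadherin, fell by 1.0 and Tjp1, ZO-1, by 0.66. Growth hormone and IGF genes had 3 of 31 higher (Prlr, the prolactin receptor, 1.04, Igfbp4 0.78) and 2 lower (Igfbp7 −1.65, Grb14 −0.65). Among 31 Nrf2 target and glutathione genes 6 were higher, with Srxn1 at 0.89 and Nqo1 at 0.84, and 2 lower, Gpx3 at −1.13 and Nfe2l2, the gene of Nrf2 itself, at −0.39. Among 31 iron and heme genes 6 rose, with the transferrin receptor Tfrc at 0.78 and Hmox1 at 0.70, and Steap4, a metalloreductase, fell by 1.47. Tfrc was the 1 of 22 housekeeping genes that passed. With only the arrays compared 7 keratin and junction genes were higher and 8 lower, 8 growth hormone and IGF genes higher, 12 Nrf2 target genes higher and 12 iron and heme genes higher. The growth hormone count of 3 was 1 without 3DHL replicate 1 or 3DHLK replicate 2 and 0 without 3DHLK replicate 3. Grb14 (−0.74 to −0.59) lost its call in 5 of 6 fits without 1 LSEC array, and with both other scalings, Prlr (0.94 to 1.16) in 4, and Igfbp4 (0.67 to 0.84) and Nfe2l2 (−0.43 to −0.35) in 3.

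Smaller lists held few calls. Of 22 clock genes 3 fell, led by Npas2 (−1.14) and Bhlhe41 (−0.80). Of 27 hypoxia genes 3 fell, among them Slc2a1 and Ndrg1 (−0.71), and Epas1, HIF-2 alpha, rose by 0.59. Edem1 (0.90) and Sdf2l1 (0.57), which serve protein quality control in the endoplasmic reticulum, were the 2 of 29 unfolded protein response genes that rose, and Dnajb4 (−0.79) the 1 of 24 heat shock genes that fell. The 3 lower clock genes were 1 without 3DHLK replicate 3, and the 3 lower hypoxia genes 1 without any one of the 3DHL replicates or 3DHLK replicate 3. Ndrg1 (−0.84 to −0.46) lost its call in 4 of 6 fits without 1 LSEC array and Bhlhe41 (−0.96 to −0.61) in 2.

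Several of the largest changes lay outside these lists. Faxdc2, a member of the fatty acid hydroxylase family, read 8.96, 9.06 and 9.51 in the 3DHLK LSEC fraction and 6.53, 6.53 and 6.70 in the 3DHL LSEC fraction (6.03-fold higher). Dmbt1, a secreted scavenger receptor protein, Fam210b, a mitochondrial protein, Lmcd1, Rup2 and Albfm1 rose by 1.80, 1.60, 1.56, 1.56 and 1.55. Lmcd1 stayed low in the 3DHLK LSEC fraction (6.91, 6.46 and 7.26, against 5.09, 5.10 and 5.76 in the 3DHL LSEC fraction) and its call was lost in 3 of 6 fits that left out 1 LSEC array (changes of 1.37 to 1.78). Among the falls, Pla2r1, a receptor of secreted phospholipases, was 5.99-fold lower, with 7.59, 6.72 and 5.63 in the 3DHLK LSEC fraction and 9.40, 9.07 and 9.23 in the 3DHL LSEC fraction. Cav1, the coat protein of caveolae, was 4.60-fold lower (6.43, 5.21 and 4.80 in the 3DHLK LSEC fraction, against 7.54, 7.69 and 7.81 in the 3DHL LSEC fraction). Il1rl1, the interleukin-33 receptor, was 4.25-fold lower, with 7.57, 6.09 and 6.34 in the 3DHLK LSEC fraction and 8.95, 8.62 and 8.70 in the 3DHL LSEC fraction, while its second probe set gave 0.08. Flrt3, Car3, a muscle and liver carbonic anhydrase, Marcksl1, Dusp10, a MAP kinase phosphatase, Psca, Frmd6 and Npy, neuropeptide Y, had log2 changes of −2.24, −2.11, −2.04, −1.94, −1.93, −1.84 and −1.80.

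The direction of these changes was then set against CS and HM, whose arrays shared in the estimate of the spread and in the choice of probe sets but not in the LSEC change itself. CS keeps hepatocytes between collagen layers, where they hold their polarity and function longer than in the plain monolayer, HM. Of the 509 genes higher in the 3DHLK LSEC fraction, 482 (94.7%) had a higher mean in CS than in HM, with a median difference of 0.67. Of the 553 genes lower in the 3DHLK LSEC fraction, 492 (89.0%) had a lower mean in CS than in HM, with a median difference of −0.57. Over all genes tested 56.8% had a higher mean in CS, and the median difference was 0.04. Under the alternatives of processing these shares ranged over 89.0% to 97.1% for the higher and 85.7% to 91.2% for the lower genes. Cdo1 averaged 12.43 in CS and 10.86 in HM, Slc10a1 11.03 in CS and 9.42 in HM, Ankrd1 7.20 in CS and 9.91 in HM, and Flna 11.33 in CS and 12.74 in HM. Exceptions included Lmcd1 (8.72 in CS, 9.79 in HM), Csad (10.31 in CS, 10.43 in HM) and Npy (12.60 in CS, 11.74 in HM). By list, the CS minus HM median was 0.81 for amino acid catabolism, 0.77 for cholesterol biosynthesis and 0.58 for fatty acid oxidation, against −0.82 for the YAP and TEAD targets and −0.21 for contractile genes. The difference between CS and HM is given as a description, over 3 arrays each, and its genes are not independent of one another.

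**Figure D4:**
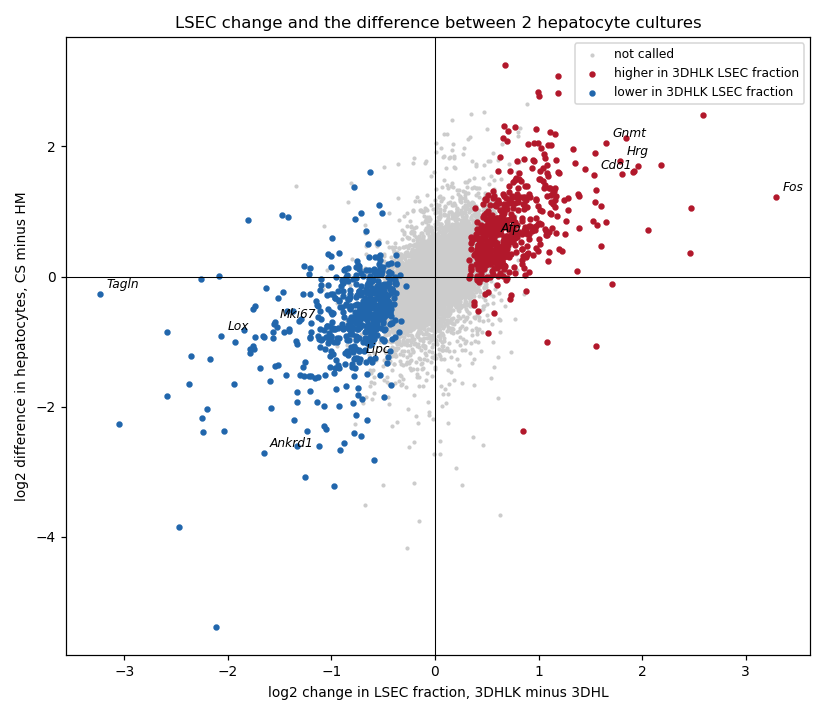
Each point is 1 of 14217 genes, with the log2 change in the LSEC fraction (3DHLK minus 3DHL) on the x axis and the log2 difference between CS and HM hepatocytes (CS minus HM) on the y axis. Of the genes higher in the 3DHLK LSEC fraction (red) 94.7% lie above 0 on the y axis, and of those lower (blue) 89.0% lie below it.

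Hepatocytes of the same models were compared in the same fit, on other arrays. In 3DHLK hepatocytes 1097 genes were higher (7.72% of those tested) and 534 lower (3.76%). The 70 genes higher in both made up 13.8% of those higher in the LSEC fraction and 6.38% of those higher in hepatocytes, and the 57 lower in both 10.3% and 10.7%. Another 54 genes were lower in the 3DHLK LSEC fraction and higher in 3DHLK hepatocytes (9.76% and 4.92%), and 9 were higher in the LSEC fraction and lower in hepatocytes. The difference between both changes was tested directly: the LSEC change lay above the hepatocyte change for 499 genes (3.51%) and below it for 968 (6.81%). Of the 509 genes higher in the LSEC fraction, 225 (44.2%) had an LSEC change above the hepatocyte change by this test, and of the 553 lower genes 246 (44.5%) had one below it. These genes were selected for their LSEC change, which is also a part of the tested difference. Shares above those of all genes were thus favoured by the selection and are given as a description.

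The genes with opposite calls included matrix, TGF-beta and growth factor genes. Igfbp7, an IGF-binding protein of stroma and endothelium, fell by 1.65 in the LSEC fraction and was higher by 2.65 in 3DHLK hepatocytes (limma, difference −4.30, adjusted p = 2.1e-07). Lox fell by 2.06 in the LSEC fraction and was 2.17 higher in hepatocytes (difference −4.23, adjusted p = 1e-05). Ccl2 was lower by 3.05 in the LSEC fraction and higher by 1.33 in hepatocytes (difference −4.38, adjusted p = 1.7e-06). Csf1 had changes of −1.52 in the LSEC fraction and 1.13 in hepatocytes (difference −2.66, adjusted p = 1.74e-07), Ltbp1 of −2.35 and 0.97, Scd2 of −1.48 and 1.56, and F3 of −1.07 and 1.20. Stellate cell and fibroblast markers moved in the hepatocyte arrays, where 13 of 21 were higher in 3DHLK and the median change was 2.11, beside 2 lower and a median of 0.18 in the LSEC fraction. Their array means in the LSEC fraction were 6.39 to 6.58 in 3DHLK and 6.38 to 6.48 in 3DHL. Macrophage markers moved there too, with 12 of 23 higher in 3DHLK hepatocytes and a median of 0.65. The part of either list in these differences was not tested. The 5 largest differences below the hepatocyte change were those of Lpl, Scara5, Srpx, Lum and Eif2s3y. They were higher by 4.76 to 5.22 on the 3DHLK than on the 3DHL hepatocyte arrays and had LSEC changes of −0.21 to 0.07. Eif2s3y is on the Y chromosome, read 9.14 in KC monolayers, and stayed at 3.42, 3.43 and 3.49 in the 3DHLK LSEC fraction and 3.45, 3.45 and 3.46 in the 3DHL LSEC fraction. The hepatocytes came from female rats, so these arrays are called hepatocytes after their label only. The source of this RNA on the 3DHLK hepatocyte arrays was not tested.

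Above the hepatocyte change lay Cyp1a1 (2.46 in the LSEC fraction, −0.71 in hepatocytes), Cldn4 (0.84 and −1.19), Cyp3a23-3a1 (1.92 and −0.09) and Sult2a2 (2.19 and 0.26). The hepatocyte levels of Cyp1a1 (mean 11.37 in 3DHLK and 12.08 in 3DHL) and Cyp3a23-3a1 (12.87 in 3DHLK and 12.96 in 3DHL) were above those of the LSEC fraction in both models. Nfkbiz (1.60 and 2.04), Vim (1.08 and 1.16) and Dmbt1 (1.80 and 1.76) were called higher in both, with differences that did not pass.

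**Figure D5:**
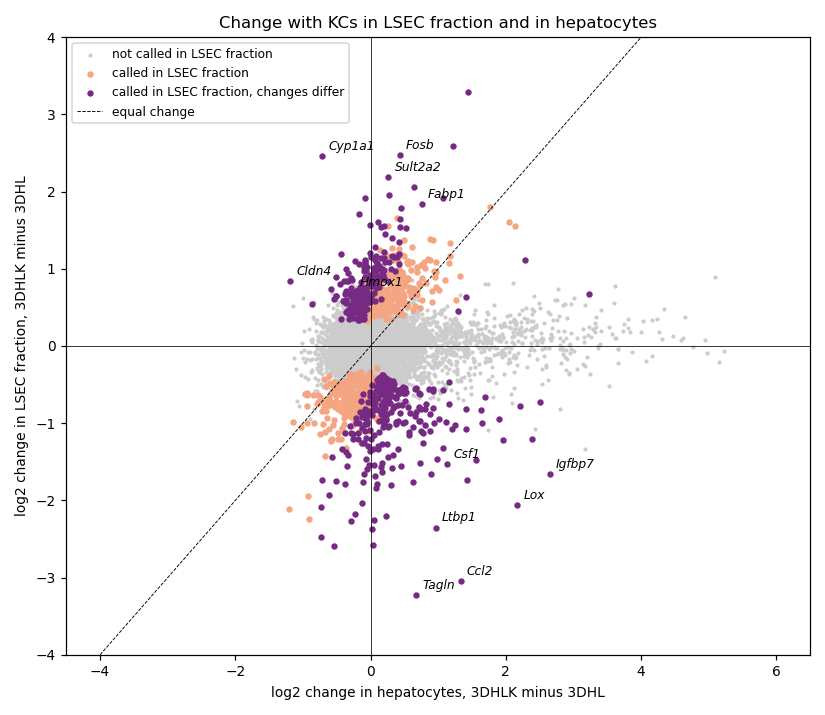
Log2 change (3DHLK minus 3DHL) of each gene in hepatocytes (x axis) and in the LSEC fraction (y axis), for 14217 genes. Genes called in the LSEC fraction are coloured, in purple where the LSEC and hepatocyte changes differed by the test, and the dashed line marks equal changes. Lox, Igfbp7, Ccl2, Csf1 and Ltbp1 lie at the lower right, lower in the 3DHLK LSEC fraction and higher in 3DHLK hepatocytes.

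The 3 arrays were not alike in either LSEC group. In 3DHLK, replicate 1 was the one nearest to the 3DHL LSEC fraction for 419 of the 553 lower genes (75.8%) and for 303 of the 509 higher genes (59.5%). Its median distance from the 3DHL mean over the lower genes was −0.57, against −0.76 and −0.80 for 3DHLK replicates 2 and 3. In 3DHL, replicate 3 was nearest to the 3DHLK LSEC fraction for 315 of the 509 higher genes (61.9%). For the lower genes it was 3DHL replicate 2, with 277 of 553 (50.1%). The correlation between arrays was 0.9935 to 0.9944 within the 3DHLK LSEC fraction, 0.9929 to 0.9956 within the 3DHL LSEC fraction and 0.981 to 0.9887 across both groups, over all probe sets. Without 3DHLK replicate 1, 418 genes were higher and 549 lower. These counts were 283 and 312 without 3DHLK replicate 2, 274 and 295 without 3DHLK replicate 3, 264 and 301 without 3DHL replicate 1, and 301 and 396 without 3DHL replicate 2. Of the 127 named genes that were called, 99 kept their call in every alternative that tested them. They were mostly picked as the largest changes, so this share does not stand for all 1062 calls. Besides the second probe sets given above, at least 1 other probe set of Rup2, Cav1, Sesn1, Csf1, Tnfaip2, Irf9, Srxn1, Scd2, Prlr and Epas1 was not called in the same direction.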

How the data were processed

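RNA of each cell fraction was amplified (NuGEN Ovation Pico), hybridised to Affymetrix whole-genome rat arrays, and deposited by the authors as log2 expression values per probe set after RMA (background correction, quantile normalization and summarization over the arrays). The published methods differ on the labeling step and name the standard target process of Affymetrix. The version of RMA and the signal over background are not given in the sources used here. Precision is limited by how many arrays each group holds. Of 31099 probe sets, 20826 name 1 gene, 436 several and 9780 none here. Symbols were updated through Entrez IDs to RefSeq (20758 matched), and 1 probe set per gene, that with the highest mean over all 23 arrays, was kept for 14217 genes. limma 3.58.1 in R 4.3.3 fitted 8 group means, and genes with a Benjamini-Hochberg adjusted p under 0.05 were called. The fit was tested on simulated data before use. Named genes were the 20 largest rises and falls without overlap of arrays, the 2 largest called rises and falls of each list, the 2 highest members of each marker list, and the 5 largest differences each way from the hepatocyte change. Other genes were picked after their values were seen. The comparison and the gene lists were chosen with earlier results of these data known. Alternatives changed the arrays fitted, the probe sets, a filter on the lowest 30% of genes, the scaling, the variance model, and left out each array.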

Additional observations from a re-analysis of the deposited data

Results flagged for a closer look

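Among 144 named genes, 86 results had an LSEC change that differed from the hepatocyte change of the same 2 models. The test was limma's, of the difference between both changes (adjusted p under 0.05 over all genes). Over all genes, 3.51% had an LSEC change above and 6.81% one below the hepatocyte change. Most named genes were picked for a large LSEC change, and some for this difference itself. The count of 86 is therefore a product of that choice and only lists the genes. Each value is the LSEC change minus the hepatocyte change on the log2 scale, and groups of 3 arrays were not searched for single outlying arrays. Above 0 among enzymes of detoxification and redox defence were Cyp1a1 (3.17), Cyp3a23-3a1 (2.01), Sult2a2 (1.92), Sult2a6 (1.58), Srxn1 (1.41) and Hmox1 (0.95). Among lipid, sterol and peroxisome genes they were Pemt (1.68), Lpin1 (1.38), Idi1 (1.20), Pex11a (1.15), Fabp1 (1.09), Hacl1 (0.84), Pex16 (0.78), Apoa2 (0.95) and Apoc2 (0.88). In amino acid, glucose and respiratory metabolism they were Csad (1.87), Otc (1.24), Pdk4 (1.33), Ndufa6 (0.63) and Ndufv2 (0.62). Among regulators and immediate early genes they were Fosb (2.04), Fos (1.85), Rxra (1.25) and Foxa3 (1.04). The remaining genes above 0 were Cldn4 (2.04), Fam210b (1.5), C4bpb (1.42), Faxdc2 (1.37), Albfm1 (1.35), Hrg (1.34), Il1rn (1.0), Edem1 (0.99), Slc10a1 (0.84), Lgals9 (0.80), Cd14 (0.80), Afp (0.71), Tfrc (0.69) and Sdf2l1 (0.58). Below 0, matrix, stromal and growth factor genes were Scara5 (−5.29), Srpx (−5.05), Lum (−4.88), Igfbp7 (−4.30), Lox (−4.23), Ltbp1 (−3.32), Tgfb3 (−2.48), Hspg2 (−1.51) and Crim1 (−1.85). Contractile, tension-responsive and membrane coat genes were Tagln (−3.90), Filip1l (−2.30), Acta1 (−1.74), Ankrd1 (−1.55), Cav1 (−2.43), Frmd6 (−1.92) and Marcksl1 (−1.91). Cytokine, chemokine and immune genes below 0 were Ccl2 (−4.38), Csf1 (−2.66), Cxcl3 (−2.04), Il1rl1 (−1.35), Tnfaip2 (−0.93), Serpinb9 (−2.40), Cd55 (−2.27) and C1r (−1.62). Coagulation, calcium-binding and vascular genes were F3 (−2.27), Plat (−1.94), Anxa1 (−1.69), S100a6 (−1.44), Sema3c (−1.08) and Jag1 (−1.01). Genes of the cell cycle and microtubules were Mki67 (−2.0), Ube2c (−1.21), Mcm6 (−1.01), Mcm5 (−0.80) and Stmn1 (−0.91). The remaining genes below 0 were Lpl (−5.36), Eif2s3y (−4.77), Scd2 (−3.03), Cyp2e1 (−2.98), Pla2r1 (−2.62), Steap4 (−2.46), Npy (−2.10), Slc22a8 (−1.98), Gpx3 (−1.90), Psca (−1.31), Adh7 (−1.17), Npas2 (−0.88) and Cdh17 (−0.83). In 3DHLK hepatocytes the stellate cell markers averaged 9.23, against 7.44 in 3DHL hepatocytes, and their part in these differences was not tested.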

How the results depend on the processing

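Against 509 genes higher and 553 lower in the 3DHLK LSEC fraction, a fit of only the arrays compared gave 1351 and 1158, one without KC monolayers 1241 and 1094, and housekeeping centring 840 lower. Same-numbered LSEC replicates correlated in their deviations by 0.066, 0.114 and 0.069, so the numbers were not taken to pair samples. With the replicate number as a block, over only the arrays compared, 1157 genes were higher and 1092 lower, and 928 had an LSEC change above the hepatocyte change. That last count, 499 in the report, was 1497 with only the arrays compared and 1632 without KC monolayers. In hepatocytes, 707 genes were higher without the lowest 30% of genes and 1553 lower without KC monolayers. Leaving out 1 array at a time gave 264 to 418 genes higher and 295 to 549 lower in the LSEC fraction, 863 to 1002 higher and 222 to 618 lower in hepatocytes, and 262 to 564 LSEC changes above and 751 to 979 below the hepatocyte change. The cause of these shifts was not tested. No named gene that was called in the LSEC fraction changed direction under the alternatives run. Of the 127 named genes called in the LSEC fraction, none lost the call with only the arrays compared, without KC monolayers, with the block or with the mean of all probe sets, 2 lost it with cyclic loess, 3 with housekeeping centring and 1 with a trended robust variance. Without 3DHL replicates 1, 2 and 3 in turn 23, 15 and 12 lost it, and without 3DHLK replicates 1, 2 and 3 in turn 4, 19 and 24. Named genes were mostly picked as the largest changes and do not stand for all calls. Precision is limited by the 3 arrays per group, with no measure of signal over background.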
